A study of Mus musculus with 18 samples.

Results

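Carbonic anhydrases are the enzymes that interconvert carbon dioxide and water with bicarbonate and a proton. The 8 genes described here are Car14, Car12, Car9 and Car4, whose proteins sit at the cell surface, the cytosolic Car2, Car3 and Car13, and Car8, which has lost the catalytic activity. They were taken by gene symbol from the 55416 genes measured in mouse ovary, and 7 of the 8 passed the filter on low counts that left 16959 genes for testing. The 8 were chosen with the counts of these same libraries in view, so their fold changes and calls are given as a description of these ovaries and not as tests of the family.

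All mice were wild type Balb/c females, in 3 groups of 6. OC+SM mice were 40 weeks old and were given an oral dose of 2.5 g/kg of Samul-tang, a herbal medicine. OC mice were 40 weeks old and YC mice 8 weeks old, and both received distilled water by mouth. Each group was dosed 5 times a week over 4 weeks. The mice, YC included, then had 5 IU of pregnant mare serum gonadotropin, 5 IU of human chorionic gonadotropin (hCG) 48 hours later, and gave an ovary 16 hours after hCG, so each value below is from a hormone-stimulated ovary. OC+SM and OC mice were kept apart within shared cages. There was 1 library of whole ovary RNA per mouse, made with a kit that reads the 3' end of each transcript.

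In the textbook account, bicarbonate and protons made by these enzymes are carried across membranes by bicarbonate transporters, proton exchangers, monocarboxylate carriers and the vacuolar proton pump. The cytosolic enzymes act on carbon dioxide that cells make or take up, while the active sites of the surface enzymes face the fluid outside the cell. Several carbonic anhydrases are known to be abundant in cell types that an ovary can hold, such as Car1 and Car2 in red blood cells and Car3 in fat cells and skeletal muscle.

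Totals per library ran from 14.2 to 20.35 in OC+SM, 11.61 to 13.43 in OC and 9.05 to 14.15 in YC, in units of 1000000 counts. Levels below are counts per 1000000 counts (CPM), scaled between libraries, and fold changes are log2 values with their standard error (SE) from 1 edgeR fit over all 18 libraries. A gene is called at an adjusted p under 0.05 over all genes tested. The gene with most counts took 6.2 to 14.35% of the counts in OC+SM, 13.81 to 18.49% in OC and 12.58 to 15.95% in YC. OC+SM library 6 and YC library 3 had the lowest mean correlation with their own group, 0.963 and 0.964. Markers of the ovary were present in every group: the summed CPM of 8 luteal and steroidogenic genes had a median of 16100 in OC+SM, 15600 in OC and 11800 in YC. The 10 oocyte markers summed to a median of 51.3 CPM in OC+SM and 42.3 CPM in OC, against 148 CPM in YC, and all 9 of them that could be tested were called lower in OC than in YC.

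The 300 bases around the annotated start of the surface enzymes' genes are shown for Car14, the member with the largest change, and for Car9 and Car12, the other transmembrane enzymes. Car9 is a textbook target of the hypoxia-inducible factors. Each runs 5′ to 3′ on the gene's strand, from 250 bases before the start to 50 bases after it, as given by RefSeq for GRCm38.p6. Car14 is at chr3:95904636-95904935 on the minus strand, Car9 at chr4:43506776-43507075 on the plus strand and Car12 at chr9:66713436-66713735 on the plus strand. Capitals mark CACGT, which reads ACGTG, the core of the hypoxia response element, on the other strand.
Car14: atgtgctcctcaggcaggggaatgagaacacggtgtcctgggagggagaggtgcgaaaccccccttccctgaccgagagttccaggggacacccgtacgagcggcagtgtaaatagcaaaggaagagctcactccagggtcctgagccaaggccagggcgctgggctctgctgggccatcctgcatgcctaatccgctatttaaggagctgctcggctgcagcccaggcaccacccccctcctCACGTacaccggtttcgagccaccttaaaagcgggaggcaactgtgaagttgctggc
Car9: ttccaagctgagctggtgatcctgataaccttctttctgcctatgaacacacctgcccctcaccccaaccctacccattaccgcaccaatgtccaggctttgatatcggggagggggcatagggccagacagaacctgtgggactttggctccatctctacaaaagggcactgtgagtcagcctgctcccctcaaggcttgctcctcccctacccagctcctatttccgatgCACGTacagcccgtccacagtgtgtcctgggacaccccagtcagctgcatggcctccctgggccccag
Car12: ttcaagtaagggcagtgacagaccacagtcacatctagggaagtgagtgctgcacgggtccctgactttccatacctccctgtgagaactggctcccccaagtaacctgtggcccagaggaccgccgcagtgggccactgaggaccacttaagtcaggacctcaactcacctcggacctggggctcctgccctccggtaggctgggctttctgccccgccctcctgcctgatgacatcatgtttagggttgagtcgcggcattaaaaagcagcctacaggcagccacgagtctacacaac
Both strands were searched for ACGTG, for the TATA box letters TATAAA and for AAGGTCA, the site of steroidogenic factor 1. CACGT begins 7 bases before the start in Car14 and 18 bases before it in Car9, and the letters are not in the Car12 window. Among 32817 promoter windows of the same length, 19.6% hold ACGTG, 13.6% hold TATAAA and 4.7% hold AAGGTCA. Neither of the last 2 motifs occurs in these 3 windows. Of the 8 members, 4 matched the table by symbol, and the fourth, Car4, holds ACGTG and TATAAA. The GC content is 61.0% in Car14 and 58.3% in Car9 and Car12, against a median of 52.7% over all windows. A match of letters is a description only.

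Car14 (ENSMUSG00000038526), a transmembrane enzyme with its active site outside the cell, was called lower in both groups of 40-week ovaries than in YC. Its levels in OC+SM ovaries were 6.09, 2.27, 1.24, 0.647, 5.22 and 2.77 CPM, in OC ovaries 2.55, 3.6, 3.53, 5.14, 7.4 and 7.48 CPM, and in YC ovaries 10.3, 20.1, 36.4, 17.5, 18.3 and 28.4 CPM. Every YC ovary lay above every 40-week ovary of either group, and the 2 groups of 40-week ovaries overlapped. The means were 3.04 ± 2.18 CPM in OC+SM, 4.95 ± 2.1 CPM in OC and 21.8 ± 9.21 CPM in YC (SD, n = 6 each). Between OC and YC the log2 fold change was -2.13 ± 0.43 (SE), which makes the YC level 4.37-fold the OC level, with an adjusted p of 0.00413 from edgeR. Without YC library 3, which had the highest Car14, it was -1.93. Between OC+SM and YC it was -2.83 ± 0.44 (adjusted p = 0.000352 from edgeR). This comparison and that of OC with YC share the same YC ovaries.

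Markers of several cell types were also called lower in OC ovaries. All 9 oocyte markers tested and 6 of 8 smooth muscle and pericyte markers were called lower in OC than in YC. So were 5 of 9 granulosa markers and 3 of 6 theca and interstitial markers. Calls of lower level were fewer for surface epithelium (2 of 8), oviduct (1 of 4), skeletal muscle (1 of 2) and nerve (1 of 3). Over all genes tested, 6.01% were called lower in this comparison. The surface epithelium sum was not lower, with a median of 75.6 CPM in OC and 66.4 CPM in YC. Against YC, OC+SM ovaries had 4 of these 8 markers called higher and 1 lower. The summed oocyte markers ran from 32.3 to 66.2 CPM in OC+SM, 33.0 to 57.0 CPM in OC and 107 to 168 CPM in YC. The 10 granulosa markers summed to 524 to 929 CPM in OC+SM, 655 to 1000 CPM in OC and 1040 to 1380 CPM in YC. The 8 smooth muscle and pericyte markers summed to 670 to 817 CPM in OC+SM, 814 to 919 CPM in OC and 911 to 1590 CPM in YC. The 6 theca and interstitial markers summed to 408 to 758 CPM in OC+SM, 397 to 474 CPM in OC and 453 to 1460 CPM in YC. Oocyte and granulosa sums thus parted YC from the 40-week ovaries as Car14 did. Smooth muscle sums of OC+SM also lay wholly below those of YC. Those of OC, at up to 919 CPM, reached just past the lowest YC sum of 911 CPM. The theca sums of YC overlapped those of both 40-week groups. Aldh1a1 was the largest part of these sums, with medians of 361 CPM in OC+SM, 319 CPM in OC and 353 CPM in YC. Insl3 of this list was at most 13.9 CPM in OC+SM, at most 11.3 CPM in OC and at least 20.3 CPM in YC. Ptch1 was at most 35.6 CPM, at most 35.4 CPM and at least 46.3 CPM. Gli1 parted only OC from YC, and Cyp17a1, Aldh1a1 and Col15a1 overlapped. In whole ovaries, fewer cells of a type and less RNA per cell cannot be told apart. The part of these cell types in the fall of Car14 was not tested.

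The 3' end of Car14 meets that of Aph1a (ENSMUSG00000015750), a subunit gene of gamma-secretase on the opposite strand, and the 2 genes share 521 bases in the GENCODE M21 annotation of GRCm38. Car14's expected counts were not whole numbers in 16 of 18 libraries and those of Aph1a in 18 of 18, whereas each other member had at most 1 such library, so some reads at Car14 were shared out between genes by the counting program. Whether the counting used strand is not stated. Aph1a averaged 98.0 ± 11.0 CPM in OC+SM, 96.9 ± 8.16 CPM in OC and 112 ± 12.3 CPM in YC, many times the level of Car14. Its log2 fold change was -0.21 ± 0.08 between OC and YC (adjusted p = 0.103 from edgeR) and 0.02 ± 0.08 between OC+SM and OC, so Aph1a was not called in either comparison. How many of the reads counted at Car14 came from Aph1a was not tested.

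**Figure D1:**
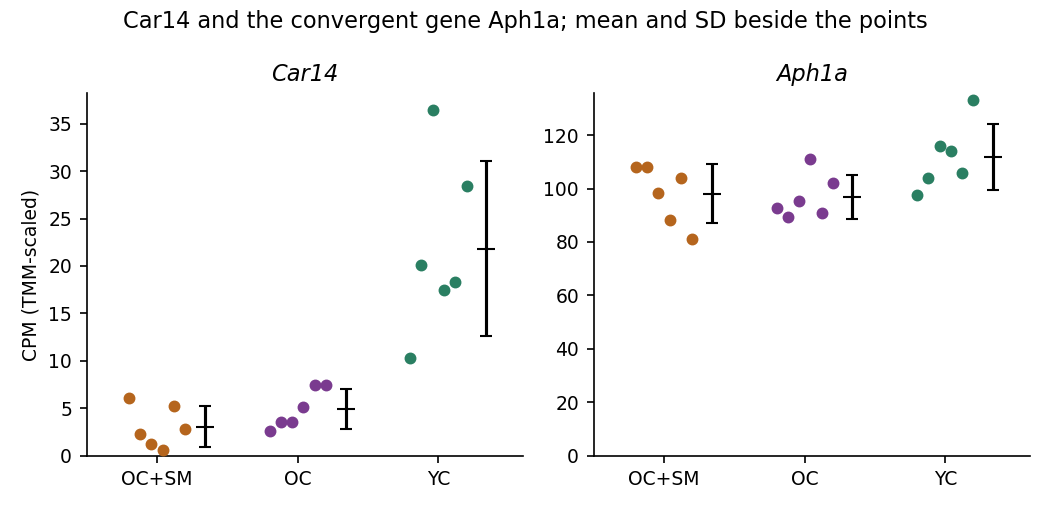
Levels of Car14 and of the convergent gene Aph1a in CPM (y axis) in each OC+SM, OC and YC library (points), with the mean and SD of each group beside the points (n = 6 each). Car14 is at 10.3 CPM or more in every YC library and at 7.48 CPM or less in every 40-week library, while Aph1a lies between 81.3 and 133 CPM and its groups overlap.

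Car12 (ENSMUSG00000032373), a transmembrane enzyme of many secretory epithelia, had a lowest, median and highest level of 3.02, 5.34 and 9.89 CPM in OC+SM, 2.53, 4.72 and 8.52 CPM in OC and 2.88, 4.11 and 6.59 CPM in YC. The 3 groups overlapped almost wholly. Its log2 fold change was 0.16 ± 0.32 between OC and YC, with a 95% interval of -0.51 to 0.82, and it was not called (adjusted p = 0.826 from edgeR). Car9 (ENSMUSG00000028463), the hypoxia-induced transmembrane enzyme, had 1.33, 2.14 and 3.77 CPM in OC+SM, 1.66, 2.43 and 2.95 CPM in OC and 2.56, 3.26 and 3.58 CPM in YC. In 4 of 6 OC ovaries Car9 lay below every YC ovary. The log2 fold change of -0.42 ± 0.23 between OC and YC was not called (adjusted p = 0.272 from edgeR). Car9 shares 1782 bases with an antisense gene, Gm12454, on the opposite strand. Car4 (ENSMUSG00000000805), an enzyme tied to the membrane by a lipid anchor, had 1 to 21 counts per library and did not pass the filter. Its mean was 0.544 CPM in OC+SM, 0.583 CPM in OC and 0.486 CPM in YC, and its groups overlapped.

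Of the cytosolic enzymes, Car2 and Car3 were called higher in both groups of 40-week ovaries than in YC, and Car13 was called in OC+SM against YC but not in OC against YC. Car2 (ENSMUSG00000027562), the cytosolic form of high activity, had a lowest, median and highest level of 6.09, 8.96 and 11.2 CPM in OC+SM, 4.73, 8.35 and 11.4 CPM in OC and 2.88, 4.85 and 6.67 CPM in YC. In 5 of 6 OC ovaries, and in 5 of 6 OC+SM ovaries, Car2 lay above every YC ovary. It rose by 0.75 ± 0.20 on the log2 scale in OC against YC, a 1.69-fold difference (adjusted p = 0.0143 from edgeR), and by 0.81 ± 0.20 in OC+SM against YC (adjusted p = 0.0046). With OC+SM libraries 4 to 6 alone, the adjusted p of OC+SM against YC was 0.0857.

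Car3 (ENSMUSG00000027559) is the cytosolic form of low activity. Its levels were 17.4, 9.4, 14.9, 14.5, 17.6 and 19.1 CPM in OC+SM ovaries, 4.83, 12.6, 8.17, 6.72, 18.7 and 15.9 CPM in OC ovaries and 5.56, 5.18, 2.24, 5.04, 5.33 and 7.37 CPM in YC ovaries. Every OC+SM ovary lay above every YC ovary, as did 4 of 6 OC ovaries, while the other 2 OC ovaries were within the YC range. Car3 rose by 1.11 ± 0.31 on the log2 scale in OC against YC (2.16-fold, adjusted p = 0.0264 from edgeR) and by 1.58 ± 0.30 in OC+SM against YC (2.99-fold, adjusted p = 0.0014). The OC call was not firm: it was kept in 18 of 27 alternative analyses, with an adjusted p between 0.00638 and 0.0665. It was lost without OC library 2, 5 or 6, without YC library 2, 3 or 4, without YC library 3 and OC+SM library 6 together, with only the OC and YC libraries in the fit (0.0542) and without the filter on low counts (0.0665).

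Car13 (ENSMUSG00000027555), another cytosolic form, had a lowest, median and highest level of 3.47, 4.57 and 6.11 CPM in OC+SM, 1.76, 3.2 and 5.31 CPM in OC and 1.04, 2.13 and 3.73 CPM in YC. In 5 of 6 OC+SM ovaries Car13 lay above every YC ovary, but in only 2 of 6 OC ovaries. It rose by 1.05 ± 0.26 on the log2 scale in OC+SM against YC (adjusted p = 0.00562 from edgeR). The OC difference from YC, 0.71 ± 0.27, was not called (adjusted p = 0.0935), but it was without OC library 1 (0.0396) and without YC library 4 (0.0278). Car13, Car3 and Car2 are neighbours on chromosome 3, where the protein-coding order in GENCODE M21 is Car13, Car1, Car3 and Car2. Car1, the red blood cell form that lies among them, was at 0 in every OC library and at most 0.144 CPM elsewhere.

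Because Car2 and Car3 are also abundant in other cell types, the markers of those types are given here. Of the 5 red blood cell markers tested, edgeR, DESeq2 and limma each called 0 in OC against YC, and 0 had an unadjusted p under 0.05. The list summed to 384 to 1210 CPM in OC+SM, 445 to 1260 CPM in OC and 655 to 1400 CPM in YC. The 10 fat cell markers summed to 220 to 398 CPM in OC+SM, 378 to 414 CPM in OC and 215 to 306 CPM in YC. Fabp4, a fatty acid binding protein found in fat and in blood vessels, was the 1 fat cell marker of 6 tested that was called higher in OC than in YC, while 4 of the 6 had an unadjusted p under 0.05. Its medians were 44.8 CPM in OC+SM, 32.9 CPM in OC and 6.06 CPM in YC. Plin4, a lipid droplet protein that was not called, had a median of 169 CPM in OC+SM, 253 CPM in OC and 146 CPM in YC, and every OC library lay above every YC library. Adipoq and Cidec, which define fat cells, had no library above 0.351 CPM. Skeletal muscle markers summed to medians of 4.87 CPM in OC+SM, 5.17 CPM in OC and 6.95 CPM in YC. Myh4 was at 0 in every OC+SM and OC library and in 5 YC libraries, and at most 0.155 CPM in YC. Of the 10 macrophage and giant cell markers, 6 were called higher in OC than in YC, and their sum ran from 173 to 360 CPM in OC+SM, 172 to 279 CPM in OC and 107 to 212 CPM in YC. Endothelial markers, of which 3 of 8 were called higher in OC than in YC, summed to 258 to 459 CPM in OC+SM, 428 to 465 CPM in OC and 346 to 401 CPM in YC. Luteal and steroidogenic markers, with 2 of 8 called higher, summed to 15300 to 17900 CPM in OC+SM, 15200 to 17400 CPM in OC and 10300 to 13600 CPM in YC. For each of these 2 lists, and for the fat cell list, every OC sum lay above every YC sum. Plin4 was the largest part of the fat cell sum. Plin1, another fat cell marker, went the other way, with a median of 15.1 CPM in OC and 23.1 CPM in YC and ranges that overlapped. Lep was at 0 in every library. The part of these cell types in the rise of Car2 and Car3 was not tested.

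Car8 (ENSMUSG00000041261) has no carbonic anhydrase activity and is known to bind the IP3 receptor Itpr1, a calcium channel. It was scarce, at 1 to 34 counts per library. Its lowest, median and highest level was 0.644, 1.14 and 1.82 CPM in OC+SM, 0.0856, 0.664 and 1.05 CPM in OC and 0.512, 1.07 and 1.4 CPM in YC. The OC ovaries were the low group, and 3 of 6 OC+SM ovaries lay above all of them, but the ranges overlapped. The log2 fold change was -0.70 ± 0.40 between OC and YC (adjusted p = 0.298 from edgeR) and 0.86 ± 0.39 between OC+SM and OC (adjusted p = 0.256 from edgeR, with the unadjusted p under 0.05). Neither was called. In GENCODE M21, Car8 shares 460 bases with a pseudogene, Gm11799, on its own strand and 101 bases with a microRNA gene, Gm25355, on the other, while Car2, Car3, Car4, Car12 and Car13 overlap no other gene.

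**Figure D2:**
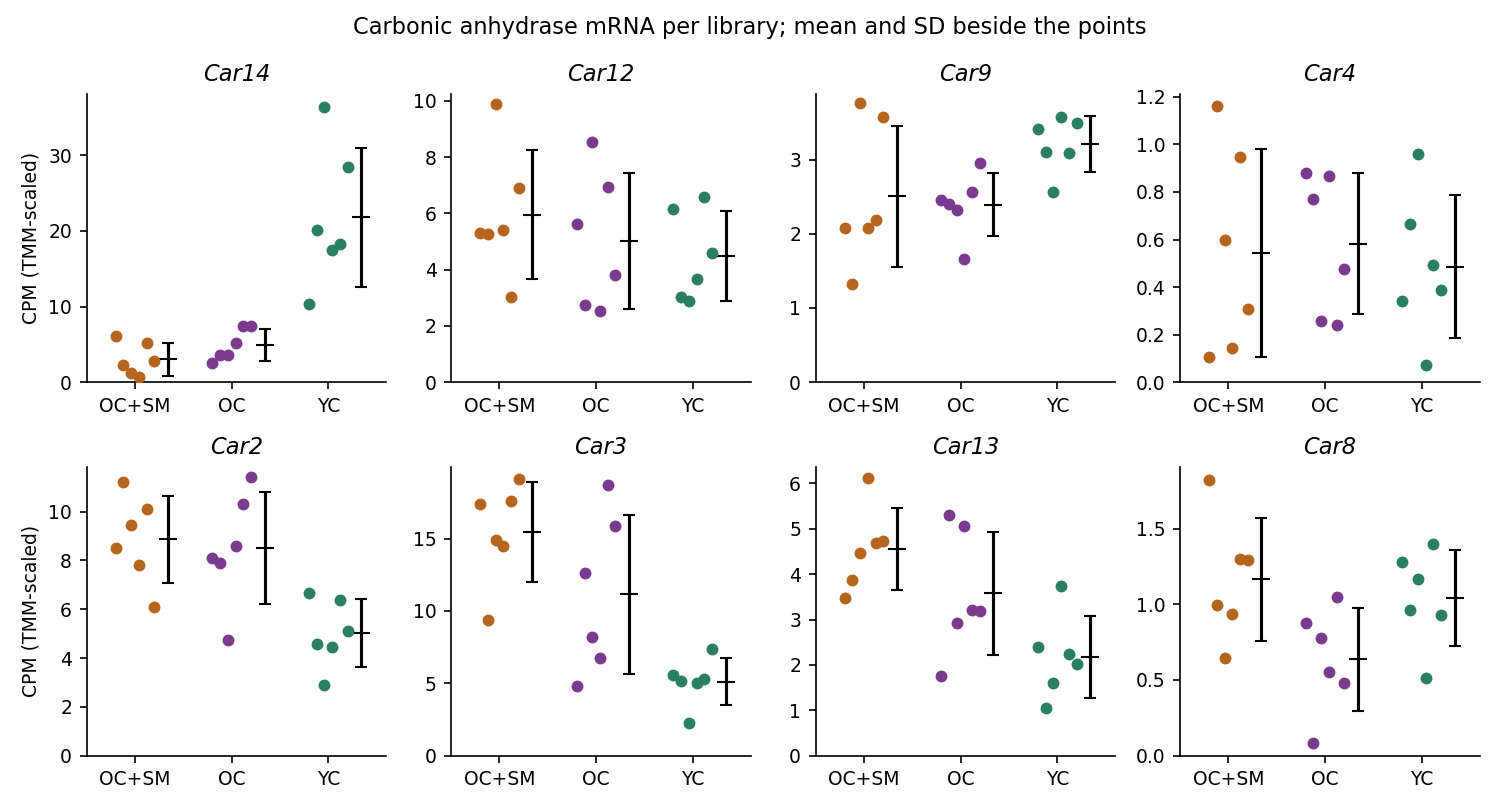
Levels of the 8 carbonic anhydrases in CPM (y axis, a separate scale for each gene) in each OC+SM, OC and YC library (points), with the mean and SD beside the points (n = 6 each). Car14 is highest in YC, while Car2, Car3 and Car13 have their highest group means in OC+SM and their lowest in YC.

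Calls went in both directions. In OC against YC, 3 of the 7 members tested were called, Car2 and Car3 higher and Car14 lower, and 4 had an unadjusted p under 0.05. Over all genes tested, 11.3% were called, 5.25% higher and 6.01% lower. Car14 was the 1 member whose OC and YC levels did not overlap, beside 7.39% of all genes. Between OC+SM and YC, 4 of 7 were called, with Car2, Car3 and Car13 higher and Car14 lower, where 22.4% of all genes were called, 11.5% higher and 10.9% lower. Car3 and Car14 did not overlap between those groups, beside 9.52% of all genes. The members' median log2 fold change was 0.16 in OC against YC and 0.41 in OC+SM against YC, beside 0.01 and 0.00 for all genes. Nothing is read from these shares, since the members were chosen on the same values.

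No member passed the threshold with Samul-tang. Between OC+SM and OC, edgeR called 0 of 7 members, with 1 of them (Car8) at an unadjusted p under 0.05, and DESeq2 and limma also called 0, though DESeq2 gave no adjusted p for Car8. Over all genes, edgeR called 1.04% in this comparison, 0.548% higher and 0.489% lower, and 1.53% of genes had groups that did not overlap. None of the 8 members had groups that did not overlap here. Car14 had a log2 fold change of -0.70 ± 0.46 between OC+SM and OC, with a 95% interval of -1.69 to 0.29 (adjusted p = 0.477 from edgeR). The difference for Car2 was 0.06 ± 0.19, with an interval of -0.34 to 0.45, the narrowest among the members. Car3 stood at 0.47 ± 0.29 (interval -0.14 to 1.07) and Car13 at 0.34 ± 0.25 (interval -0.18 to 0.87). Each of these intervals included 0, and that of Car8, at 0.06 to 1.66, did not. For Car9 the difference was 0.07 ± 0.23 (interval -0.40 to 0.54) and for Car12 it was 0.25 ± 0.31 (interval -0.39 to 0.89). These intervals leave room for differences that this number of mice could not detect, so they do not show that the groups are alike.

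**Figure D3:**
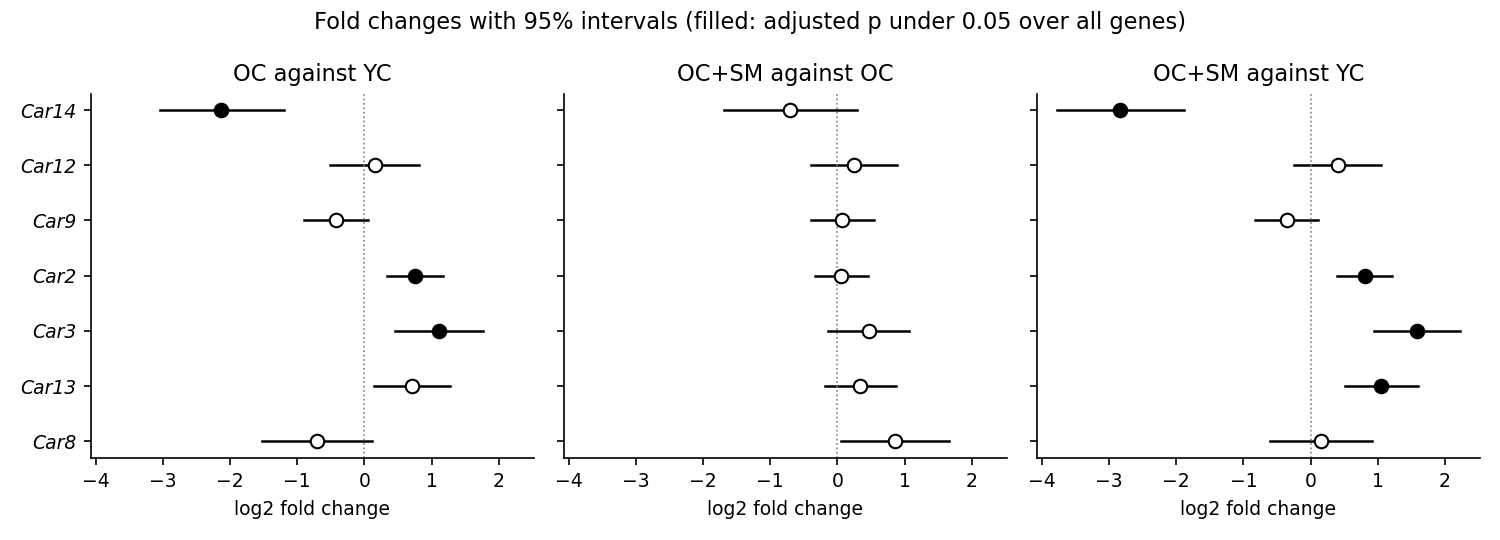
Log2 fold changes (x axis) of the 7 members tested in OC against YC, OC+SM against OC and OC+SM against YC, with 95% intervals (lines) and filled points where the adjusted p over all genes was under 0.05. Car14 is at -2.13, -0.70 and -2.83 and Car3 at 1.11, 0.47 and 1.58, and no point is filled in OC+SM against OC.

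Summed over the 16 mouse carbonic anhydrase genes, the family's transcript level overlapped among the 3 groups while its make-up differed. The sum had a lowest, median and highest value of 53.3, 58.0 and 61.9 CPM in OC+SM, 46.6, 49.5 and 66.3 CPM in OC and 52.8, 56.5 and 68.3 CPM in YC. Without Car14, the other 15 genes summed to medians of 54.5 CPM in OC+SM and 46.0 CPM in OC, against 38.6 CPM in YC. The lowest OC library without Car14, at 42.3 CPM, was just under the highest YC library, at 42.5 CPM. Car14 made up a median of 4.59% of the sum in OC+SM and 9.02% in OC, against 34.7% in YC. Its share ran from 1.16 to 10.2% in OC+SM, 5.46 to 12.1% in OC and 19.4 to 56.9% in YC. Car3 made up a median of 27.2% in OC+SM and 20.9% in OC, against 9.43% in YC. These sums follow from the levels above and carry no test.

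By group mean, the order of levels began with Car3, Car2, Car5b and Car12 in OC+SM, with Car3, Car5b, Car2 and Car12 in OC, and with Car14, Car5b, Car3 and Car2 in YC. Car14 was thus the most abundant carbonic anhydrase transcript in YC ovaries, the fifth in OC and the sixth in OC+SM. Of neighbours in the order, Car14 and Car5b in YC were the 1 pair whose ranges did not overlap. A 3' tag is counted once per transcript, so these levels need no division by length. YC library 3, the shallowest library, had the highest Car14 of its group at 36.4 CPM and the lowest Car2, Car3, Car9 and Car12. Its theca and interstitial markers summed to 1460 CPM, where the other YC libraries had 453 to 573 CPM. Among the OC ovaries, libraries 5 and 6 had the highest levels of Car14, Car2 and Car3. These libraries were picked out after their values were seen.

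**Figure D4:**
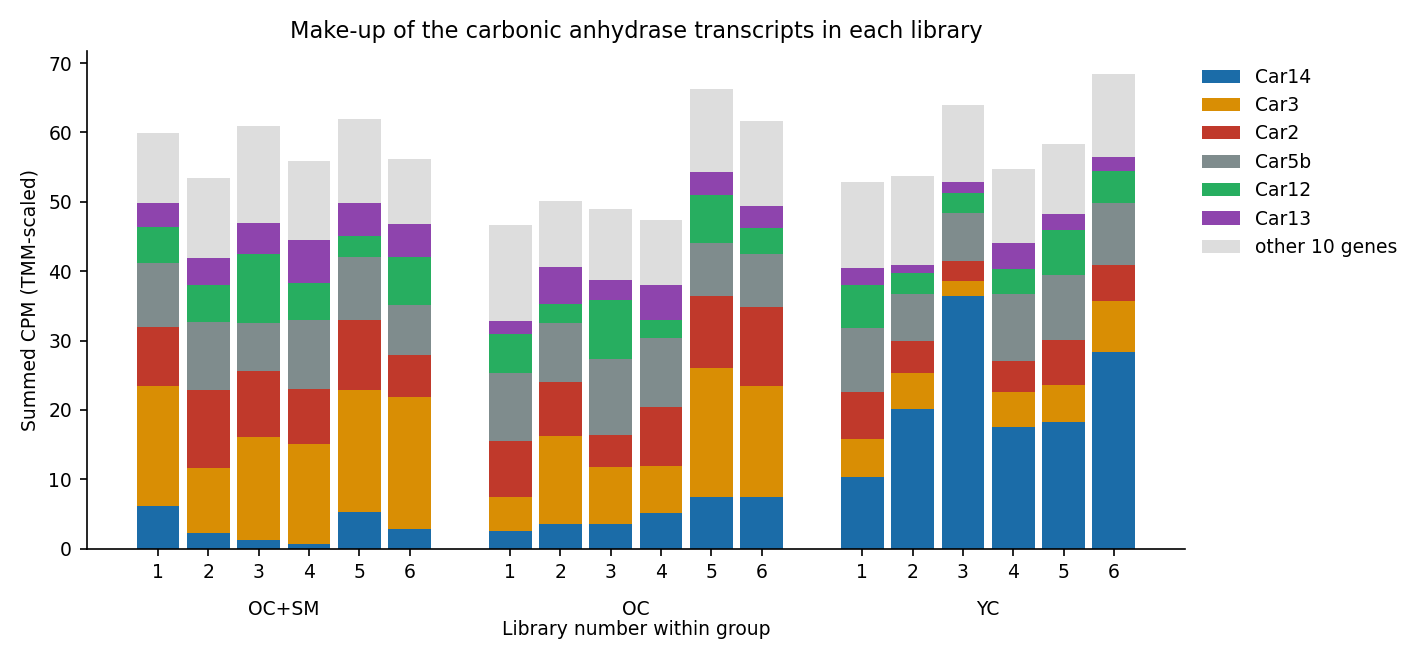
Summed CPM of the 16 carbonic anhydrase genes (y axis) in each OC+SM, OC and YC library (bars), with colours for the 6 genes of highest level and grey for the other 10. The bars reach 46.6 to 68.3 CPM in all groups, and the Car14 part is largest in YC, up to 36.4 CPM.

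The other 8 carbonic anhydrases showed no called change. Car5b, a mitochondrial form, averaged 8.72 ± 1.31 CPM in OC+SM, 9.11 ± 1.35 CPM in OC and 8.53 ± 1.29 CPM in YC, although its counts were not whole in any library, so reads there were shared among genes. Car7, cytosolic, averaged 2.8 ± 0.931 CPM in OC+SM, 3.38 ± 0.587 CPM in OC and 2.28 ± 0.632 CPM in YC, and its log2 difference of 0.56 ± 0.25 between OC and YC was not called (adjusted p = 0.156 from edgeR). Car11, an inactive form, and Car15, a membrane-anchored form, averaged between 1.59 and 1.95 CPM in every group. Neither edgeR, DESeq2 nor limma called any of these 4 in any comparison, and 1 of them, Car7, had an unadjusted p under 0.05, in OC against YC. Car1, Car5a, Car6 and Car10 were too scarce to test, with group means of at most 0.553 CPM.

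Genes that act on the same bicarbonate and protons were counted by list. Of 21 subunits of the vacuolar proton pump (V-ATPase) tested, 6 were called higher and 0 lower in OC against YC, which is 28.6% of the list beside 11.3% of all genes, with a median log2 fold change of 0.12 beside 0.01 for all genes. Against YC, OC+SM ovaries had 9 subunits called higher and 0 lower, or 42.9% beside 22.4% of all genes, but 3 called with OC+SM libraries 4 to 6 alone. Atp6v1a, the catalytic subunit, averaged 185 ± 19.6 CPM in OC+SM and 168 ± 7.28 CPM in OC, against 136 ± 7.55 CPM in YC. It rose by 0.31 ± 0.07 in OC against YC (adjusted p = 0.0027 from edgeR) and by 0.45 ± 0.07 in OC+SM against YC. Atp6ap2, an accessory subunit, and Atp6v1h and Atp6v0e, pump subunits, rose by 0.34 ± 0.07, 0.29 ± 0.07 and 0.32 ± 0.08 in OC+SM against YC. In OC against YC none of them was called, at 0.15 ± 0.07, 0.06 ± 0.07 and 0.15 ± 0.08. The subunit with the largest fold, Atp6v0d2, was picked out after its values were seen and is also one of the macrophage markers above: it averaged 8.84 ± 3.62 CPM in OC and 2.75 ± 1.54 CPM in YC. Between OC+SM and OC, edgeR called 0 of the 21, with 7 at an unadjusted p under 0.05. DESeq2 called 1 of them there and limma 0.

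The list of bicarbonate transporters was drawn by family, from Slc4 and Slc26 genes and Cftr, so not each of its genes need carry bicarbonate. Among its 10 genes tested, edgeR called 0 in OC against YC, where 3 had an unadjusted p under 0.05 while DESeq2 called 0 and limma 1. It called 0 in OC+SM against OC, where 1 had such a p, DESeq2 called 1 and limma 0. Against YC, in OC+SM ovaries, Slc4a11 rose by 0.50 ± 0.18 and Slc4a2, an anion exchanger, fell by 0.18 on the log2 scale. The count of these calls fell without YC library 1, 2, 4, 5 or 6 and without any 1 OC+SM library but library 4. Both were lost without the low-count filter, with only the OC+SM and YC libraries in the fit, and with the replicate number as a block. Among 11 sodium-proton exchangers and monocarboxylate carriers, Emb, a partner protein of the carriers, rose to 126 ± 14.5 CPM in OC, against 66.9 ± 14.4 CPM in YC (log2 0.91 ± 0.14, adjusted p = 0.000291 from edgeR). Slc16a1, a lactate carrier, fell to 26.9 ± 2.97 CPM in OC, against 34.4 ± 4.57 CPM in YC (adjusted p = 0.0485), a call that was lost without any 1 of OC libraries 1 to 5, YC libraries 2 to 6 and OC+SM libraries 1, 2, 4 and 5, and under limma. Emb and Slc16a1 were the 2 calls of this list in OC against YC, or 18.2% beside 11.3% of all genes. No gene of this list was called in OC+SM against OC by edgeR, DESeq2 or limma, and 1 had an unadjusted p under 0.05.

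Enzymes that use bicarbonate as a substrate or signal were split in direction. Pcca, a subunit of propionyl-CoA carboxylase, rose by 0.39 ± 0.10 and Acacb, an acetyl-CoA carboxylase, fell by 0.59 on the log2 scale in OC against YC. They were the 2 calls among 8 tested, or 25.0% beside 11.3% of all genes. The Acacb call was lost without OC library 1, 2, 3, 5 or 6 or YC library 4 or 6, and limma called 0 of the 8. Mccc1, a subunit of methylcrotonyl-CoA carboxylase, rose in OC+SM against YC by 0.35 ± 0.11. With Samul-tang, no enzyme of the 8 was called against OC by edgeR, DESeq2 or limma, and 0 had an unadjusted p under 0.05. The 3 IP3 receptors, among them Itpr1, had 0 calls in the main edgeR fit in every comparison. Of these, 2 had an unadjusted p under 0.05 in OC against YC and 2 in OC+SM against OC, and 0 in OC+SM against YC. DESeq2 called 1 in OC+SM against OC and 0 in the other comparisons, and limma called 0 in all 3. Other edgeR fits also called 1. In OC against YC this was so with only those 2 groups in the fit and without OC+SM library 6. In OC+SM against OC it was so without OC+SM library 4 or 6. Leaving out YC library 3 and OC+SM library 6 together gave 1 call in both comparisons.

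The hypoxia-induced genes, a set that Car9 also belongs to, held 1 call among 23 tested in OC against YC, or 4.3% beside 11.3% of all genes. P4ha2, a collagen prolyl hydroxylase, averaged 5.79 ± 1.11 CPM in OC and 8.3 ± 1.46 CPM in YC. Of the 23, Slc2a1, the glucose transporter GLUT1, rose by 0.44 ± 0.14 in OC+SM against YC, and the glycolytic enzyme genes Aldoa and Pgk1 rose by 0.21 ± 0.07 and 0.33 ± 0.12. These calls were 13.0% of the list, beside 22.4% of all genes. The count of 3 called higher became 0 without YC library 3 or OC+SM library 6 and under limma, and 1 with only the 2 groups in the fit and without YC library 6 or OC+SM library 2. The P4ha2 call was lost without OC library 1, 2, 3, 4 or 6 or YC library 1, 2 or 4. Between OC+SM and OC, edgeR, DESeq2 and limma called 0 of the 23, and 5 had an unadjusted p under 0.05. The list's median log2 fold change was 0.02 in OC against YC.

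**Figure D5:**
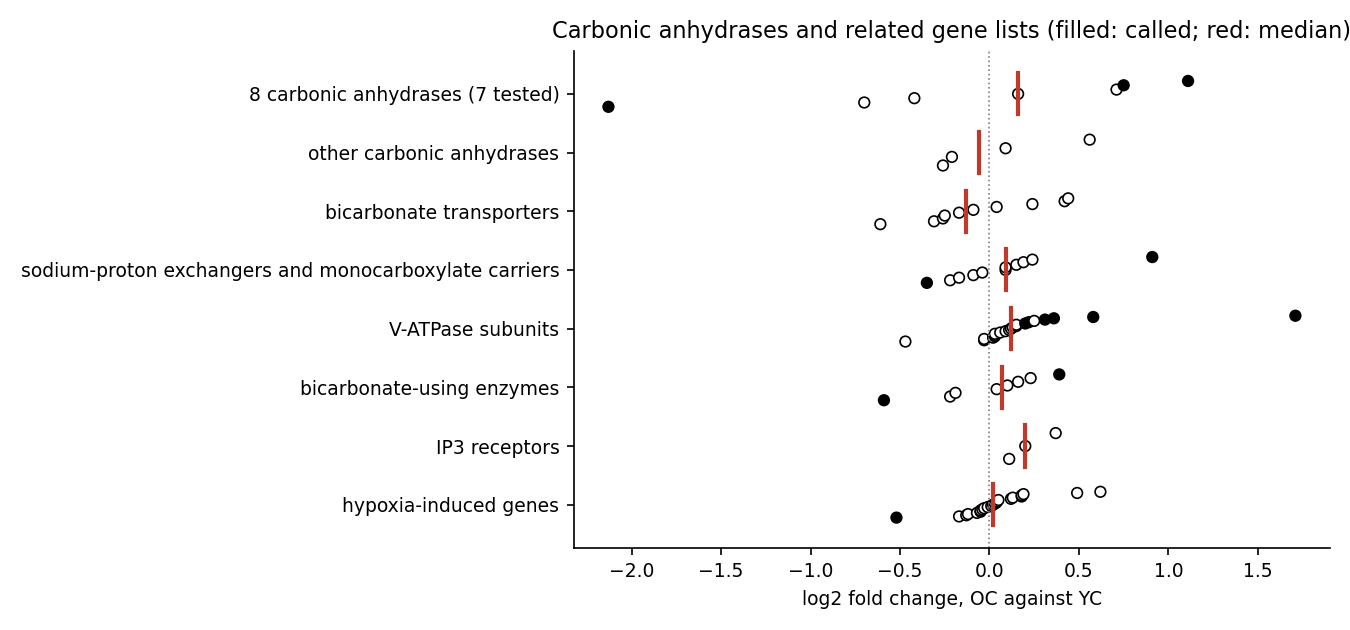
Log2 fold changes in OC against YC (x axis) of the carbonic anhydrases and of 7 related gene lists (rows), with a point for each gene tested, filled where called, and a red bar at the median. The carbonic anhydrases span -2.13 to 1.11, while the called genes of the other lists lie between -0.59 and 0.91, apart from the V-ATPase subunit Atp6v0d2 at 1.71.

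The genes whose levels ran most like a member's were sought among 10539 genes with a mean of at least 5 CPM, by Pearson's r of log2 CPM over the 18 libraries. The r over deviations from the group means is given beside it, because genes that differ between groups correlate through the groups alone. Genes of 1 library share its depth and its cell make-up, and no p is given. For Car14 the closest were Dsp, a desmosome protein (r = 0.953, and 0.826 for deviations), Fam13a (0.941 and 0.842) and Myocd, a coactivator of smooth muscle genes (0.929 and 0.79). Their own log2 fold changes between OC and YC were -1.07, -1.02 and -1.19, each smaller in size than that of Car14. For Car2 the closest were Dcaf11 (0.928 and 0.886), Pnrc2 (0.896 and 0.876) and Tmem135 (0.876 and 0.73). Car3 was closest to Emb, the carrier partner above (0.895 and 0.745), then Tor3a (0.888 and 0.782) and Efemp1, a matrix protein (0.885 and 0.673).

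For the other members the r values were lower. Car13 ran most like Hoxd8 (0.818 and 0.594), Slc45a4 (0.803 and 0.67) and Msantd4 (0.793 and 0.672). Car12 ran most like Il1rl2 (0.839 and 0.824), the actin gene Actg1 (0.804 and 0.793) and Arpc5l (0.796 and 0.784). Car9 ran most like Gnl3 (0.84 and 0.786), Tro (0.804 and 0.744) and Fgd3 (0.804 and 0.785), and Car8 like Ankrd39 (0.763 and 0.644), Zcchc24 (0.753 and 0.689) and Fanca (0.747 and 0.635). No gene appeared for more than 1 member. The genes named are the 3 highest of 10539 for each member. The r that such a pick gives between unlinked genes was not tested. For Car8, r rests on 1 to 34 counts per library.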

How the data were processed

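The data are 18 whole-ovary libraries, 6 each of OC+SM, OC and YC mice. Per the labels' protocols, libraries were made with a QuantSeq 3' kit. STAR 2.7.9a and RSEM 1.3.3, after FastQC 1.9, and the build GRCm39 are named in the submitters' processing notes. The authors deposited expected counts and TPM values for 55416 genes per library, per the file headers. RSEM shares reads among genes, so expected counts need not be whole, and 87.4% lay within 0.005 of a whole number (67.4% among genes tested). The deposited TPM divides by gene length, which does not suit 3' tags, and served only as an alternative. Neither the annotation nor the strand setting is stated in the sources used here. Symbols were matched by identifier to a mouse annotation of another build for 52083 genes.

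Expected counts were rounded, filtered with edgeR's filterByExpr (16959 genes left, at least 10 counts in about 6 libraries at the median depth), scaled by TMM (factors 0.94 to 1.07) and tested with edgeR 4.0.16 in R 4.3.3 (quasi-likelihood, robust, two-sided), with all 18 libraries in 1 fit and Benjamini-Hochberg adjustment over all genes. Alternatives used DESeq2 1.42.0 and limma 3.58.1 on log2(TPM + 1). Counts differed beyond sampling noise in all 153 pairs of libraries (chi-square per degree of freedom at least 4.1), so no library merely resampled another. Each library was counted as 1 mouse, which this check cannot establish. The scripts were tested on simulated data.

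The members and the gene lists were chosen with earlier results of these data known. Every member is named. From each related list, up to 4 called genes with the smallest p are named, and for each member the 3 genes of highest correlation. One called gene of these lists is not reported here. Fold changes are log2 values, with SE and 95% intervals from the fit. In figures and text, group levels are CPM ± SD.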

Additional observations from a re-analysis of the deposited data

Results flagged for a closer look

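In a group of 6 libraries, a value is listed here when the highest or lowest library stood apart from the others by Dixon's test at the 95% level. Chance alone lists about 1 in 20 groups, and 89 groups were checked. None of the 8 carbonic anhydrases described above was listed.

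Among the scarce family members, Car1 was at 0.0776 CPM in YC library 6 and at 0 in the other YC libraries, Car5a was at 0.644 CPM in OC+SM library 3 against at most 0.216 CPM in the others, and Car10 was at 0.119 CPM in OC+SM library 5 and at 0 in the others. Each of these rests on few counts. Car15 was at 2.55 CPM in OC library 1, where the other OC libraries had 1.37 to 1.74 CPM.

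Among the marker sums, theca and interstitial markers reached 1460 CPM in YC library 3, the library with the highest Car14, against 453 to 573 CPM in the others. Skeletal muscle markers were lowest in OC+SM library 3, at 2.76 CPM, and in YC library 3, at 3.73 CPM. OC+SM library 6 had the lowest endothelial sum of its group at 258 CPM, the highest macrophage and giant cell sum at 360 CPM, the highest surface epithelium and mesothelium sum at 115 CPM and the lowest oviduct epithelium sum at 15.3 CPM.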

How the results depend on the processing

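Over 27 alternative analyses, no called fold change of a member reversed its sign, and 565 of the recomputed values of the 21 fold changes moved by less than the spread between replicates. The fold change of Car14 in OC against YC moved to -1.50 under limma on log2(TPM + 1), and that of Car8 in OC+SM against OC to 0.16 under the same setting. Car14 was called in all 27 in OC against YC, from -2.28 to -1.50, and in OC+SM against YC, from -3.16 to -2.05. With the replicate number as a block, a fit that no label supports, Car14 in OC against YC had an adjusted p of 0.0163 from edgeR. The replicate block changed no call of a member. Apart from the labels, deviations of same-numbered libraries from their group means had correlations of -0.118 to 0.074. In each pair of groups, 1 of 6 libraries correlated best with its own number. Such correlations cannot show that the numbers carry no shared batch. No member was called in OC+SM against OC under any of the 27, except that DESeq2 gave Car8 no adjusted p there. Over all genes, the 176 calls of that comparison became 45 with only its 2 groups in the fit, 483 without YC library 3 and OC+SM library 6, 10 with OC+SM libraries 4 to 6 alone, 663 under DESeq2, and 32 to 594 with 1 library left out. In OC+SM against YC, 3796 calls became 1851 with OC+SM libraries 4 to 6 alone, an alternative chosen after seeing the data. The cause was not tested. The counts of Car4 and Car8, at most 34 per library, limit what could be seen of them.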
